A study of Homo sapiens with 8 samples.

Results

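The genes described here are the enzymes that build cholesterol and fatty acids, with the regulators that switch these enzymes on. They were chosen by name, with earlier results of these data known, so their share of calls beside that of all genes is a description. Of 32 genes listed, 29 were found by gene symbol among the 17687 named genes of the arrays, each with 1 probe set. FDFT1, MYLIP and FADS1 carried no probe set under their own symbol and were not analysed here.

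Cells make cholesterol from acetyl-CoA along the mevalonate pathway, which ends in squalene, and then in a long series of steps from squalene through lanosterol to cholesterol. Fatty acids are built from the same acetyl-CoA by ACLY, ACACA and FASN and are then desaturated and elongated. Most of these enzymes are transcribed under SREBP transcription factors, which are held in the endoplasmic reticulum by SCAP and INSIG proteins while sterols are plentiful and are cleaved and sent to the nucleus when sterols run low. Growth factor and kinase signalling also feeds into SREBP activity, and proliferating leukaemia cells make much of their own membrane lipid.

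The study measured total RNA of K562 and KBM5 cells, established human lines of chronic myeloid leukaemia that carry the BCR-ABL1 fusion kinase, to compare OR21, imatinib and their combination. Both lines were grown in RPMI-1640 with foetal bovine serum, a source of outside lipid that all groups shared. In each line there were 4 treatments: control with no exposure, OR21 (named as a demethylating agent in the study's title) at 100 nM for 3 days, IM (imatinib, an inhibitor of the BCR-ABL1 kinase) at 1000 nM for 24 hours, and the combination, in which the days of OR21 came first and IM followed. For the combination, the dose of OR21 stands in the treatment description and not in its own label. Each line and treatment had 1 array, 8 in all.

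Values are linear intensities of each gene's probe set, and differences are on the log2 scale, where 1 unit is a 2-fold change. As background each array has the 95th percentile of the 612 probe sets that are negative controls on it, which lay between 161 and 263 intensity units, with 5874 to 7083 genes above it. Of the 29 members, 23 were above background on all 8 arrays, PMVK on none, and MVD, HSD17B7, SC5D, FASN and ELOVL6 on some. The markers set out for each line fitted the labels, counting a marker that was above background on any array of a line. By this count 5 of 5 measured erythroid markers were above it in K562 and 0 in KBM5. In KBM5, 5 of 5 measured myeloid markers were above it. Of these, MPO was above it only on the 2 KBM5 arrays with OR21, and CSF3R on 3 KBM5 arrays, not on control. SPI1 alone of the myeloid markers was above it in K562, in the arrays without IM. Of 5 lymphoid markers, 3 were below background on all arrays, CD3D was above it only in K562 without IM, and CD79A only on KBM5 arrays. EPCAM and KRT19, epithelial markers, were above background on all 4 K562 arrays and on none of KBM5, while CDH1 and KRT5 were above it nowhere.

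Genes that depend on the kinase marked the arrays labelled IM. PIM1, a kinase gene downstream of BCR-ABL1 and STAT5, read 13456, 10367, 3872 and 2830.2 on the K562 control, OR21, IM and combination arrays and 4088, 3162, 108 and 122 on those of KBM5. CISH, a feedback inhibitor induced by STAT5, read 1291, 1001, 72.3 and 94.9 in K562 and 2986, 2805, 946 and 735 in KBM5. Both genes were lower on every array with IM than on those without it in the same line, and both were called lower in each line. PIM1 fell by 1.83 on the log2 scale in K562 (limma, adjusted p = 0.000947) and was at least 17.1-fold lower in KBM5, where it was below background with IM. CISH was at least 6.18-fold lower in K562, where it was below background with IM, and fell by 1.79 in KBM5 (limma, adjusted p = 0.000743).

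Imatinib lowered most of the lipid synthesis genes in KBM5 and fewer of them in K562. Fewer cells with a transcript and less RNA per cell cannot be told apart in these bulk samples. In KBM5, 21 of the 29 members fell and 0 rose (limma, adjusted p under 0.05 over 17687 genes), where 10.6% of all genes were called lower and 10.8% higher. In K562, 10 members fell and 1, TM7SF2, rose, where 8.05% of all genes were called lower and 5.34% higher. The K562 calls of HMGCS1, IDI1, CYP51A1, NSDHL, STARD4, ACLY and SCD were lost when any 1 K562 array was left out. Those of TM7SF2, DHCR7, FASN and FADS2 were lost without some of these arrays. The median difference of the 29 members was -1.62 in KBM5 and -0.62 in K562, and that of all genes was 0.03 and 0.07. In a fit of both lines together 12 members fell and 0 rose, where 4.87% of all genes were lower and 2.75% higher. The members' median was -1.17 and that of all genes 0.06. Among the 12, SC5D, INSIG1 and STARD4 lost their call when any 1 array was left out. This fit takes the lines as repeats, so a response that differs between them widens its spread and is harder to call. The arrays with IM lay wholly under those without it for 25 of 29 members in KBM5, for 21 in K562 and, over both lines, for 16, where 23.9%, 25.7% and 5.35% of all genes did so. They lay wholly above for 0 members in KBM5, 2 in K562 and 0 over both lines (27.1%, 31.3% and 3.97% of all genes).

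Without a test, 19 members in KBM5 were at least 2-fold lower and 0 higher on the IM array than on the control array (9.87% and 9.13% of all genes), and with OR21 on both sides 22 were lower and 0 higher (8.50% and 8.84%). These counts use intensities as deposited. On the lower side, HSD17B7 and FASN among the 19 and MVD, SC5D and FASN among the 22 were below background. In K562, 10 members were at least 2-fold lower and 1 higher without OR21 (7.57% and 5.46% of all genes), and 7 lower and 0 higher with it (6.48% and 4.88%). The IM effect in a line is the mean of 2 array pairs, IM against control and combination against OR21, and the pairs stand in for repeats. P-values therefore rest on how far the pairs of both lines agree, through a spread per gene that the lines share. That spread is also drawn towards the spread of other genes. P-values assume that log2 effects of the drugs add up, and do not measure a spread between cultures. Errors are standard errors of the limma fits throughout.

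**Figure D1:**
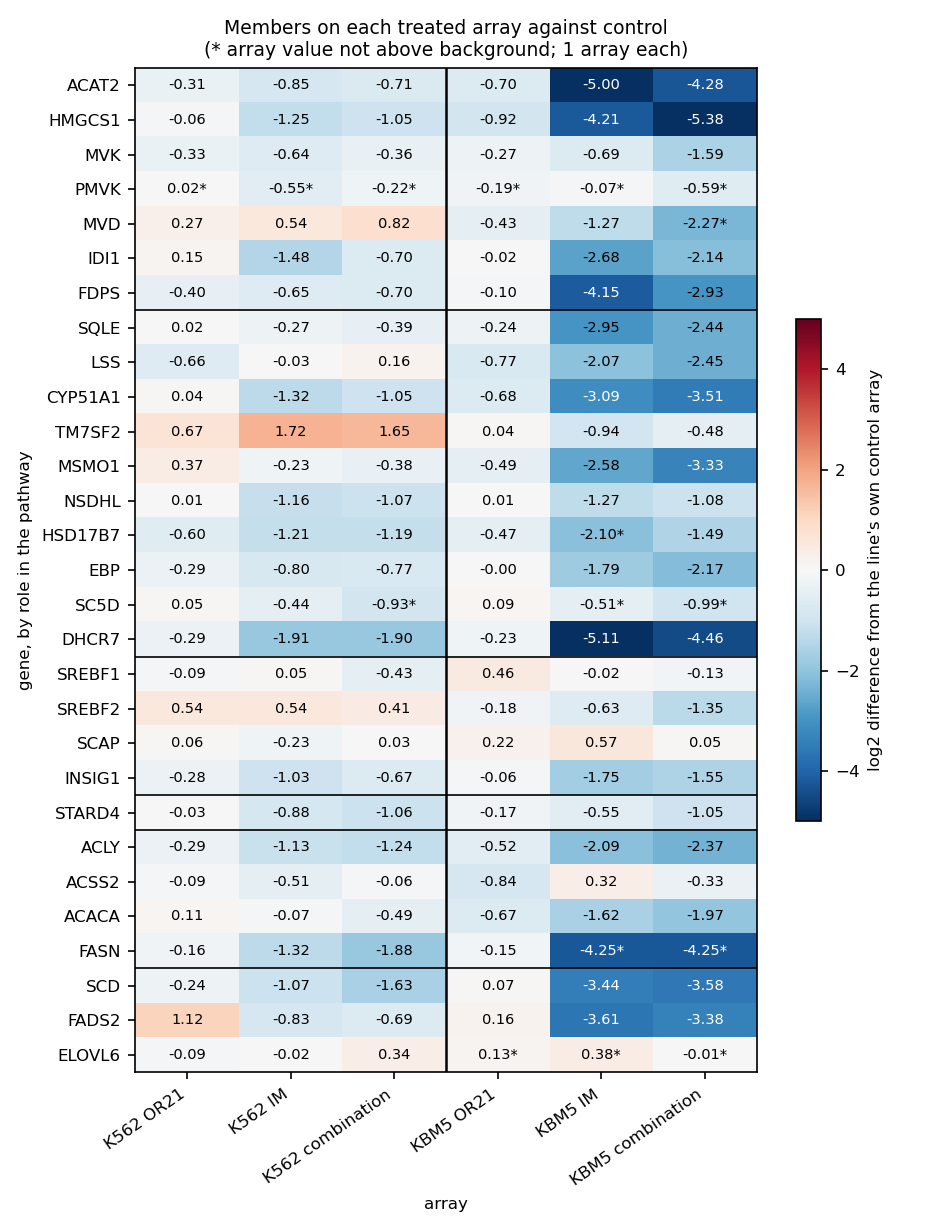
Log2 difference of each treated array from the control array of its own line, for the 29 members in the order of their roles, with 1 array per cell and an asterisk where that array was not above background. Blue cells (lower) fill most of the IM and combination columns of KBM5, down to -5.38 for HMGCS1, while the same columns of K562 are paler, with the strongest red (higher) for TM7SF2, at 1.72 and 1.65.

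Promoter windows of 5 members are printed because their genes showed the main patterns of response: HMGCS1 and DHCR7 fell furthest in KBM5 among members still above background, NSDHL was called in both lines with like sizes, TM7SF2 rose in K562, and SREBF2 encodes the regulator. The windows are from RefSeq, build GRCh38.p14, and run from 250 bases before to 50 after each gene's first listed start, 5′ to 3′ on the gene's strand. HMGCS1 is at chr5:43313363-43313662 (minus strand), DHCR7 at chr11:71448344-71448643 (minus strand), NSDHL at chrX:152830813-152831112 (plus strand), SREBF2 at chr22:41832855-41833154 (plus strand) and TM7SF2 at chr11:65111622-65111921 (plus strand). Capitals mark CCAAT or its reverse complement ATTGG, the box bound by NF-Y, and the sterol regulatory element core TCACNCCAC.
HMGCS1: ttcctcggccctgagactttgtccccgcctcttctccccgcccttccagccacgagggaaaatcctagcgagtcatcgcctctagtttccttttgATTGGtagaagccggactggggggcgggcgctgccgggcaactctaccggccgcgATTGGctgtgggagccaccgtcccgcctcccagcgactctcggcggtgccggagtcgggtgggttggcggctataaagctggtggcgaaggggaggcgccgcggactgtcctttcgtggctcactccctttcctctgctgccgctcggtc
DHCR7: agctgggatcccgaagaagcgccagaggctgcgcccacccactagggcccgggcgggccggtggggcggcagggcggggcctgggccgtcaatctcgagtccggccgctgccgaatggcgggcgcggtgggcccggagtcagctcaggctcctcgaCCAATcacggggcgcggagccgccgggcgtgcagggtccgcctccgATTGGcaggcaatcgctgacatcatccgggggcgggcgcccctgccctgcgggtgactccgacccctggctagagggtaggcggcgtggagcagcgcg
NSDHL: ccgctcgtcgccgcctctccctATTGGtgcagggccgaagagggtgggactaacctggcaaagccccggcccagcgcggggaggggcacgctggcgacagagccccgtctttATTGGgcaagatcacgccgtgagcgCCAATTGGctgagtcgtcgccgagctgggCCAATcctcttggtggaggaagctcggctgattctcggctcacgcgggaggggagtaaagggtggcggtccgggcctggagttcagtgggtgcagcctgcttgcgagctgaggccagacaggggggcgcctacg
SREBF2: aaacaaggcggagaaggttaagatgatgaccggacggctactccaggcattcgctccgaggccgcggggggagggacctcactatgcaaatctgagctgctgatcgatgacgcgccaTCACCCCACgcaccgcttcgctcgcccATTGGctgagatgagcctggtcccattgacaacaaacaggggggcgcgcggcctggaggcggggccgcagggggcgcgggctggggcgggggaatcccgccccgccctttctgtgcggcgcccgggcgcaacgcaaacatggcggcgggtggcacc
TM7SF2: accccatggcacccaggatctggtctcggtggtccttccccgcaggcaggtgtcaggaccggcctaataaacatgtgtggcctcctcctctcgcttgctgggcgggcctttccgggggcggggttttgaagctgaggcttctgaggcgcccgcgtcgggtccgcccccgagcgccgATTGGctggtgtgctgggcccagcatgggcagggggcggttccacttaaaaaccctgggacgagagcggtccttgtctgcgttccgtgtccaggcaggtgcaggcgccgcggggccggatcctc

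A CCAAT box on either strand was in 25 of the 36 windows held for 26 measured members (69.4%, 21 genes) and in 34.6% of 35116 windows of all genes. In the printed windows NSDHL had 5 of these boxes, of which 2 overlap, HMGCS1 and DHCR7 had 2 each, and SREBF2 and TM7SF2 had 1. The other windows held for HMGCS1 and DHCR7 had 0. The GC box GGGCGG, bound by Sp1, was in 88.9% of the members' windows and 45.0% of all, and the E-box CACGTG, which SREBP can bind, in 13.9% and 7.26%. The sterol core TCACNCCAC was in 1 members' window, that of SREBF2, starting 133 bases before the start, and in 1.13% of all windows. These are matches of letters in short windows, counted on both strands, and windows of a gene with several starts can overlap. ACAT2, SQLE and FASN were not searched.

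Of the mevalonate steps, 6 of 7 genes fell in KBM5 and 2 of 7 in K562. ACAT2, which joins acetyl-CoA units in the cytosol, read 4827, 3886, 2678 and 2956 on the control, OR21, IM and combination arrays of K562 and 8299, 5113, 259 and 428 on those of KBM5. Both KBM5 arrays with IM were far under both without it, by -4.29 ± 0.33 (limma, adjusted p = 1.76e-05), and the K562 difference of -0.62 ± 0.33 was not called. HMGCS1 makes the HMG-CoA that enters the pathway. In the same order it read 9183, 8811, 3867 and 4448 in K562 and 23319, 12327, 1262 and 561 in KBM5. It fell in both lines, 2.17-fold in K562 (log2 -1.12 ± 0.24) and 20.1-fold in KBM5 (-4.33 ± 0.24, limma adjusted p = 5.53e-06).

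Further down the same branch, IDI1, the isopentenyl diphosphate isomerase, read 7798, 8653, 2800.2 and 4803 in K562 and 5981, 5903, 936 and 1357 in KBM5, for control, OR21, IM and combination. The IM arrays did not overlap with the others in either line, and IDI1 fell in K562 (-1.16 ± 0.26) and in KBM5 (-2.40 ± 0.26; limma, adjusted p = 0.0159 and 0.000132). FDPS, which makes farnesyl diphosphate, read 14458, 10984, 9186 and 8889.5 in K562 and 16768, 15645, 946 and 2196 in KBM5. FDPS was 11.2-fold lower with IM in KBM5 (-3.49 ± 0.31), while its K562 difference of -0.48 ± 0.31 was not called. MVD, the mevalonate diphosphate decarboxylase, had differences of opposite sign in the lines: 819, 987, 1193 and 1451 in K562, where both IM arrays were the high ones, and 747, 554, 310.3 and 154 in KBM5, where both were the low ones. MVD fell in KBM5 (-1.56 ± 0.25), a size that is not exact because the combination array was below background, and its K562 difference of 0.55 ± 0.25 had an adjusted p of 0.185 (limma). MVK, the mevalonate kinase, fell 2.01-fold in KBM5 (limma, adjusted p = 0.0212) and differed by -0.34 ± 0.27 in K562 with no call. Without either the KBM5 OR21 or the KBM5 combination array, the KBM5 difference of MVK was -0.69 and the adjusted p 0.202 (limma). PMVK, the next kinase, was never above background, and its differences were -0.39 and -0.24.

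From squalene to cholesterol, 8 of 10 genes fell in KBM5, and 3 fell and 1 rose in K562. SQLE, the squalene epoxidase, which is a rate-setting step, read 4053, 4122, 3371 and 3083 in K562 and 5764, 4874, 746 and 1060.2 in KBM5, in the order control, OR21, IM and combination. It fell 5.96-fold in KBM5 (-2.58 ± 0.26) and differed by -0.34 ± 0.26 in K562 with no call. LSS folds the chain into lanosterol, the first sterol. It read 3407, 2161, 3345 and 3804 in K562, where arrays with and without IM overlapped, and 3646, 2143, 871 and 667 in KBM5, where they did not. LSS fell by 1.87 on the log2 scale in KBM5, and the K562 difference was 0.39 ± 0.27.

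CYP51A1, the lanosterol demethylase, fell in both lines. Its intensities were 5694, 5869, 2279 and 2749 in K562 and 8041, 5020.5, 945 and 707 in KBM5, a fall of 2.31-fold and of 7.77-fold. MSMO1, which oxidises the methyl groups of lanosterol, read 24269.8, 31287, 20637 and 18639.9 in K562 and 63439, 45179, 10610.0 and 6304 in KBM5. Both K562 arrays with IM were under both without it, but by -0.49 ± 0.25 with no call, whereas MSMO1 fell by 2.71 on the log2 scale in KBM5. EBP, the sterol isomerase, read 13796, 11267, 7932 and 8116 in K562 and 13972, 13939.9, 4053 and 3105 in KBM5, and was called only in KBM5 (-1.98 ± 0.24, against -0.64 ± 0.24 in K562). HSD17B7, a sterol reductase, read 556, 368, 241 and 243 in K562 and 814, 586, 189 and 289.8 in KBM5, where the IM array was below background. HSD17B7 fell in KBM5 (-1.56 ± 0.30) but the adjusted p was 0.0677 (limma) and the difference -1.02 without either the KBM5 control or the KBM5 IM array, and in K562 the difference was -0.90 ± 0.30 with no call.

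DHCR7 makes the last reduction to cholesterol and had the largest measured fold of the 29 members under IM in each line. It read 20575, 16817, 5467 and 5515 in K562 and 22412, 19083, 649 and 1018 in KBM5, so the lines started at like levels and parted with IM. The fall was 3.39-fold in K562 (-1.76 ± 0.27, limma adjusted p = 0.00214) and 25.4-fold in KBM5 (-4.67 ± 0.27, adjusted p = 5.53e-06). NSDHL, a sterol dehydrogenase, fell by like amounts in both lines: 1637, 1648, 733 and 780.2 in K562 and 558, 561, 231 and 263 in KBM5, with the IM arrays at about the same distance below the others. NSDHL fell by 1.12 in K562 and by 1.18 in KBM5, though the KBM5 IM array lay only just above its background of 229. SC5D, a sterol desaturase, read 278, 288, 206 and 146 in K562 and 312, 333, 219.6 and 157 in KBM5, with the K562 combination array and both KBM5 arrays with IM below background. SC5D was not called in either line by itself (limma adjusted p = 0.107 and 0.0532), with a difference of -0.71 ± 0.26 in K562 and at least 1.53-fold lower values in KBM5. It was called over both lines (-0.75 ± 0.16, limma adjusted p = 0.0403), with the size inexact where arrays lay below background.

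TM7SF2, a sterol reductase that acts soon after CYP51A1, was the exception. On the control, OR21, IM and combination arrays it read 686, 1089, 2267 and 2153 in K562, with both IM arrays the highest, and 2081, 2146, 1084 and 1495 in KBM5, with both IM arrays the lowest. It rose 2.56-fold with IM in K562 (1.35 ± 0.26, limma adjusted p = 0.00771), and its KBM5 difference of -0.73 ± 0.26 was not called (adjusted p = 0.0788). Without the K562 control or the K562 IM array the difference was 0.98 and was no longer called.

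**Figure D2:**
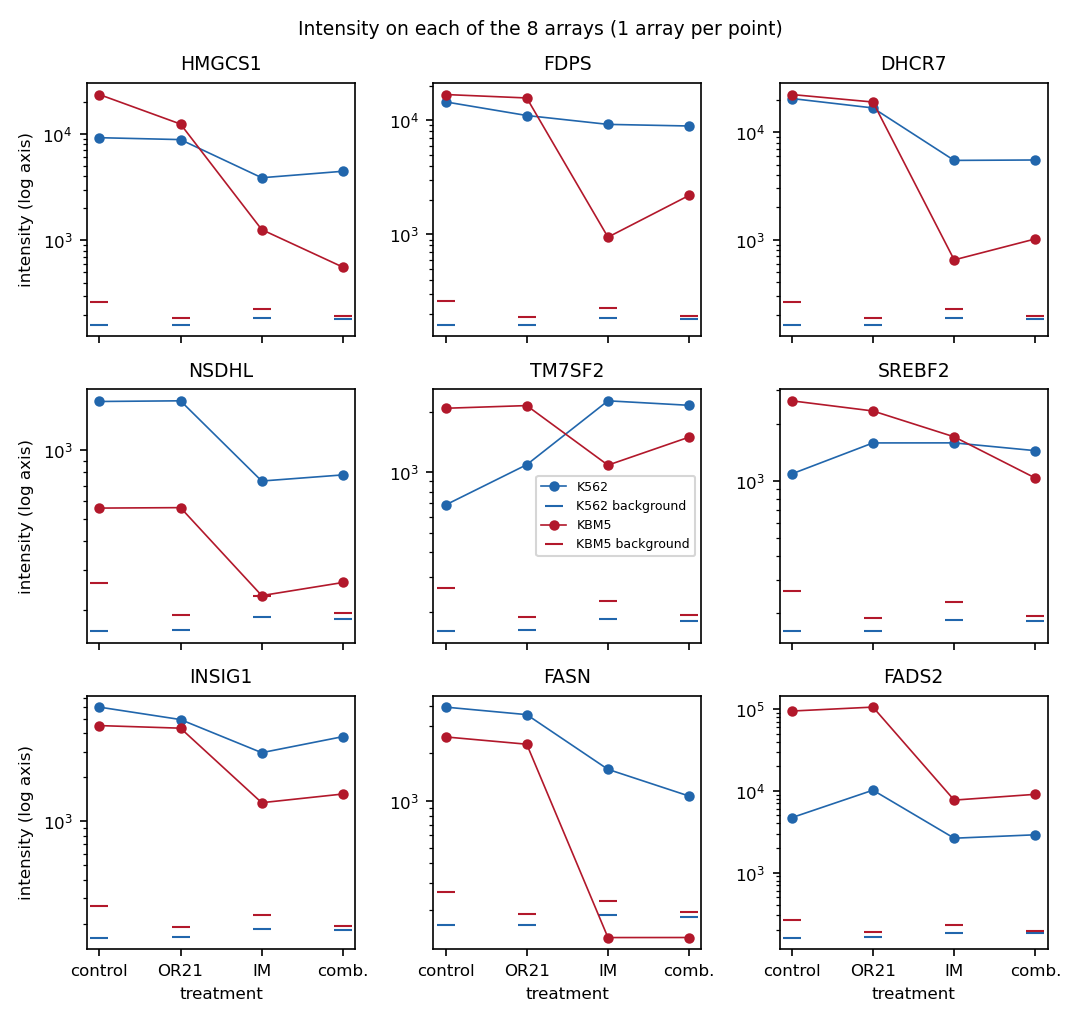
Intensity (log axis) of 9 members on each of the 8 arrays, by treatment, with K562 in blue, KBM5 in red and short dashes for each array's background; points are 1 array each and lines only join arrays of a line. HMGCS1, FDPS, DHCR7, FASN and FADS2 drop further with IM in KBM5 than in K562, NSDHL drops by about the same distance in both, and TM7SF2 moves opposite ways.

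Among the regulators of the pathway, 0 of 4 were called in K562, and 2 of 4, both lower, in KBM5. SREBF1 encodes the SREBP form that favours fatty acid genes. It read 1971, 1850.2, 2043 and 1458 in K562 and 819, 1125, 807 and 747 in KBM5, in the order control, OR21, IM and combination, with differences of -0.15 ± 0.25 and -0.31 ± 0.25 that were not called; under quantile normalization the K562 difference was 0.092. SREBF2, which encodes the form that favours cholesterol genes, read 1087, 1584, 1585 and 1442 in K562, with the control array lowest and the arrays with and without IM overlapping, and 2641, 2334, 1705 and 1034 in KBM5, with both IM arrays lowest. SREBF2 fell by 0.90 on the log2 scale in KBM5 (limma, adjusted p = 0.0342), and differed by 0.20 ± 0.27 in K562. Without either the KBM5 OR21 or the KBM5 combination array, the KBM5 difference of SREBF2 was -0.63, with an adjusted p of 0.253 (limma). SCAP, the escort of SREBP, read 1875, 1952, 1602 and 1909 in K562 and 1410.1, 1638, 2097 and 1457 in KBM5, where it was highest on the IM array. Its arrays overlapped in both lines, with differences of -0.13 ± 0.26 and 0.20 ± 0.26, and the K562 difference was 0.11 under quantile normalization.

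INSIG1 retains SREBP and is itself an SREBP target. It read 6031, 4959, 2946 and 3792 in K562 and 4511, 4330.2, 1342 and 1538 in KBM5, with the IM arrays lowest in each line. It fell in KBM5 (-1.62 ± 0.25, limma adjusted p = 0.00113), differed by -0.71 ± 0.25 with an adjusted p of 0.0968 in K562, and was called over both lines (-1.17 ± 0.24). STARD4, a carrier of cholesterol between membranes, read 1252, 1227, 680.5 and 602 in K562 and 779, 694, 531 and 377 in KBM5. Its IM arrays were the lower ones in each line: it fell by 0.95 in K562 (limma, adjusted p = 0.0233), and in KBM5 differed by -0.72 ± 0.24 with an adjusted p of 0.0547.

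In fatty acid synthesis, 2 of 4 genes fell in K562 and 3 of 4 in KBM5. ACLY, which makes cytosolic acetyl-CoA from citrate, read 12577, 10289, 5739.9 and 5331 in K562 and 11283, 7888, 2658 and 2183 in KBM5, for control, OR21, IM and combination. It fell 2.06-fold and 3.92-fold, with no overlap between arrays with and without IM in either line. FASN, the fatty acid synthase, read 3947, 3534, 1584 and 1069.6 in K562. In KBM5 it read 2548, 2289.8, 134 and 134, so that it was lost into the background on both arrays with IM. FASN fell 2.87-fold in K562 (-1.52 ± 0.24) and was at least 11.5-fold lower with IM in KBM5 (limma, adjusted p = 5.53e-06). ACACA, which commits acetyl-CoA to fatty acids, fell in KBM5 (-1.46 ± 0.25) and differed by -0.33 ± 0.25 in K562 with no call. ACSS2, which makes acetyl-CoA from acetate, was not called in either line, with -0.24 ± 0.24 in K562 and 0.42 ± 0.24 in KBM5 and overlapping arrays in both.

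Of the desaturases and elongases, SCD and FADS2 fell in both lines and ELOVL6 was called in neither. SCD, which makes monounsaturated fatty acids, read 48450.3, 40924, 22999 and 15659 in K562 and 31422, 33044, 2899 and 2632 in KBM5. That was a fall of 2.35-fold in K562 and of 11.7-fold in KBM5. FADS2, the first desaturase of polyunsaturated fatty acids, read 4693, 10172, 2634 and 2900.1 in K562, where OR21 alone gave the highest value, and 94216, 105262, 7694 and 9054 in KBM5. It fell by 1.32 in K562 and by 3.58 in KBM5, but in K562 without either the OR21 or the combination array the difference was -0.83, with an adjusted p of 0.306 (limma). ELOVL6, which elongates palmitate, was above background on all 4 K562 arrays, with no call for IM (0.21 ± 0.25), and on none of KBM5, where the difference between values below background was 0.12.

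Whether the response to IM differed between the lines was tested as a contrast of the same fit, with KBM5 minus K562 as the sign. It was called for 14 of 29 members, all with the more negative IM effect in KBM5, and for 0 in the other direction, where 4.90% of all genes were called lower and 5.25% higher. The members' median difference between the lines was -1.23, and that of all genes -0.02. ACAT2 (-3.67 ± 0.46), HMGCS1 (-3.22 ± 0.33) and FDPS (-3.01 ± 0.44) led the mevalonate steps, with MVD also called, on a KBM5 side that is partly below background. In the sterol branch 7 of 10 genes were called, DHCR7 with the largest difference (-2.91 ± 0.38) and EBP with the smallest (-1.34 ± 0.34). FASN (-2.65 ± 0.34) was the 1 called gene of fatty acid synthesis, where its KBM5 fall is a lower bound, and SCD and FADS2 were called among the desaturases. None of the 4 regulators nor STARD4 was called.

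For NSDHL the lines differed by -0.063 ± 0.33, with a 95% confidence interval of -0.79 to 0.66. The interval was -0.50 to 0.98 for STARD4 and -0.90 to 0.73 for SC5D, the latter with values below background. IDI1 (-1.23 ± 0.37, limma adjusted p = 0.0646), ACACA (-1.13 ± 0.35, adjusted p = 0.0734) and SREBF2 (-1.11 ± 0.38, adjusted p = 0.0976) had negative differences that did not pass the threshold. Fits with 1 array left out come in equal pairs, because leaving out either array of an IM pair gives the same result. Without any 1 of the K562 arrays 10 or 11 members were called, and without any 1 of the KBM5 arrays 14. EBP kept its call in 2 of these 8 fits, CYP51A1 in 4, and LSS, TM7SF2 and FADS2 in 6.

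Lineage markers also moved with IM. In K562, 4 of 5 erythroid markers rose, among them ALAS2, the haem synthesis enzyme of red cells (5.96 ± 0.57), and the summed level of the list was 18669, 42714, 177079 and 232431 on the control, OR21, IM and combination arrays. In KBM5, 3 of 5 myeloid markers rose, among them CSF3R, the receptor of a granulocyte growth factor (3.49 ± 0.27, with 1 array without IM below background). MPO was called lower, but in KBM5 it read 65.8, 11442, 35.9 and 5283 on the control, OR21, IM and combination arrays. Both KBM5 arrays without OR21 were below background, so the size of the MPO fall is not exact. The summed level of the myeloid list in KBM5 was 52505, 100460.0, 88568 and 132437. In KBM5, PRTN3 was not called. The part of these shifts in the response of the lipid genes was not tested.

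**Figure D3:**
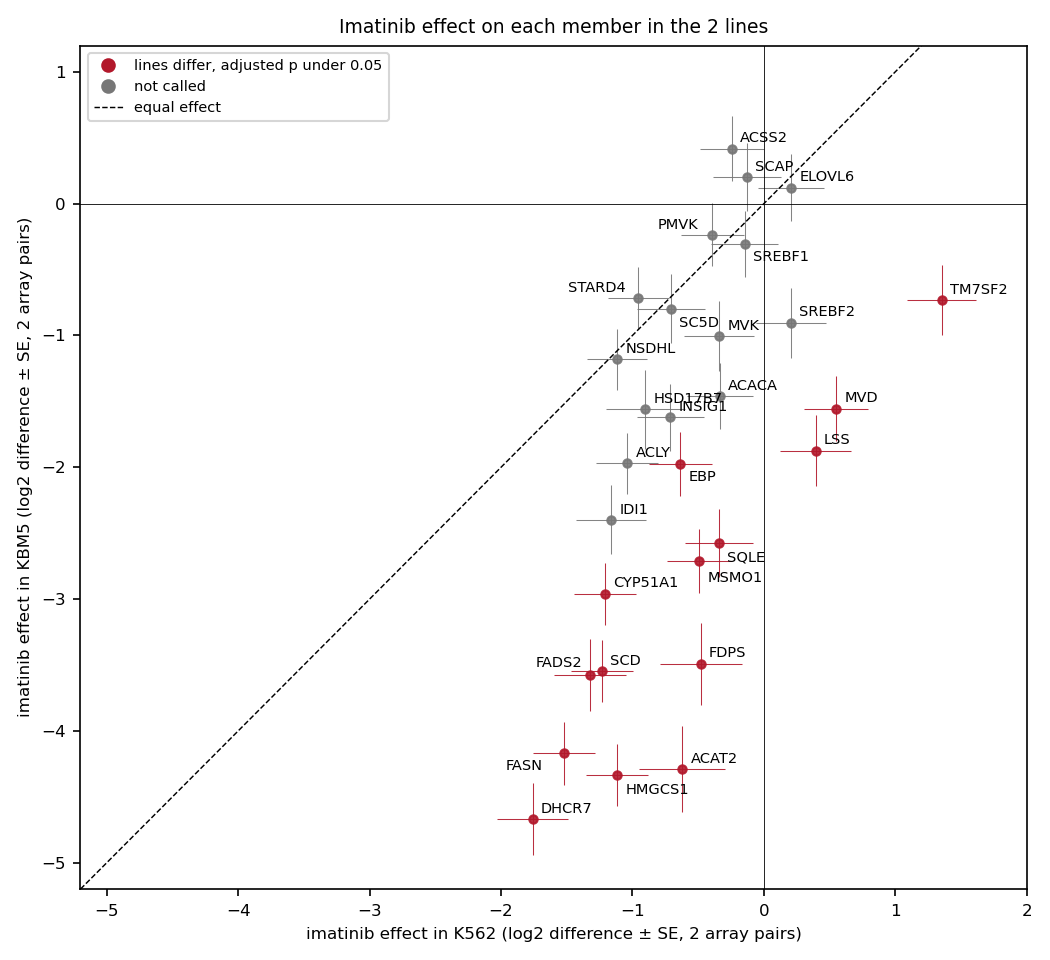
Log2 IM effect of each member in K562 (x axis) against KBM5 (y axis), with bars of 1 standard error from 2 array pairs; red points are the 14 members for which the lines differed at an adjusted p under 0.05, and the dashed line marks equal effects. The red points all lie under the dashed line, and NSDHL, STARD4 and SC5D are among the other points near it. TM7SF2, MVD, LSS, SREBF2 and ELOVL6 lie to the right of 0.

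The lines also differed in the level of some members over the 4 treatments: 9 were lower in KBM5 and 1 higher, where 17.0% of all genes were lower and 15.0% higher. ELOVL6 was at least 19.4-fold lower in KBM5, which was below background. NSDHL (-1.59 ± 0.16), SREBF1 (-1.07 ± 0.19) and ACACA (-1.52 ± 0.29) were lower in KBM5, as were IDI1, STARD4, MVD, FASN and SCD. These means hold the IM arrays, on which KBM5 had dropped further, and on the control arrays ACACA (1554 in KBM5 against 2297 in K562), IDI1, MVD, FASN and SCD were nearer to K562. FADS2 was 6.60-fold higher in KBM5 (limma, adjusted p = 0.00515), and the gap was widest on the arrays without IM. Under quantile normalization 5 of these 10 calls remained, and 5 or 6 members were called without any 1 of the arrays with IM.

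OR21 by itself gave no call among the members. In the fit of both lines 0 of 29 members were called (limma; 0% of all genes lower and 0% higher), and 0 of 29 had an unadjusted p under 0.05, against 622 of all genes. In K562 0 were called (0% of all genes lower and 0.0905% higher), with 1 member at an unadjusted p under 0.05, and in KBM5 0 were called (0.0565% of all genes lower and 0.486% higher), with 5 members at an unadjusted p under 0.05. HMGCS1 had the lowest adjusted p of them in KBM5, with a difference of -1.04 ± 0.24 (limma, adjusted p = 0.105), and passed the threshold when the variances were moderated with an intensity trend and robust fitting (adjusted p = 0.0101). The OR21 effect differed between the lines for 0 members (0.0565% of all genes lower and 0.0452% higher in KBM5 than in K562), with 3 members at an unadjusted p under 0.05. HMGCS1 was lower with OR21 in KBM5 both without IM (-0.92) and with it (-1.17). Between the KBM5 control and OR21 arrays 21 of 29 members were below 0, as were 51.9% of all genes, with a median of -0.18, and 0 reached 2-fold either way (1.76% and 2.36% of all genes lower and higher). In K562, FADS2 was the 1 member to reach 2-fold between the same arrays (1.12, where 0.622% and 1.36% of all genes were lower and higher). Its fitted difference was 0.63 ± 0.27, with no call, and 0 members reached 2-fold on the K562 arrays that also had IM (0.820% and 1.02% of all genes). Of 6 genes that are often switched on when DNA methylation is lost, 0 were called for OR21 in the fit of both lines. As no gene at all was called there, this count cannot show whether OR21 moved them. On the K562 control, OR21, IM and combination arrays GAGE1 read 224, 384, 111 and 216, and SSX1 114, 206, 114 and 186. MAGEA1 read 328, 293, 165 and 198, and PRAME 108838, 116912, 102136 and 99492. GAGE1, SSX1 and MAGEA1 were each below background on some of these arrays. MAGEA4 and DAZL were above it nowhere.

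The combination is the treatment the study was built to examine. Against control 0 of 29 members were called in the fit of both lines (limma; 0.136% of all genes lower and 0.0622% higher), although 18 members and 2806 of all genes had an unadjusted p under 0.05. The lowest adjusted p was that of ACLY (-1.80 ± 0.34, limma adjusted p = 0.0836). The lines stand in as repeats in this fit, and a response that differs between them widens the spread. The count of 0 therefore cannot show that the combination left the members unmoved. Within each line, without a test, 9 members were at least 2-fold lower and 1 higher than control in K562 (7.06% and 5.86% of all genes), and 22 were lower and 0 higher in KBM5 (9.46% and 10.2% of all genes). Among the 22, MVD and FASN were below background on the KBM5 combination array. NSDHL was -1.07 in K562 and -1.08 in KBM5, and STARD4 -1.06 and -1.05, whereas HMGCS1 was -1.05 and -5.38.

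Against IM alone the combination was called for 0 of 29 members in the fit of both lines (limma; 0% of all genes, with 0 members and 605 of all genes at an unadjusted p under 0.05). The departure from additive drug effects was likewise called for 0 (0% of all genes, with 0 members and 274 of all genes at an unadjusted p under 0.05). On the KBM5 arrays the combination was at least 2-fold under IM alone for HMGCS1 (-1.17) and at least 2-fold above it for FDPS (1.22), where 3.01% and 3.92% of all genes were lower and higher. MVD read 310.3 with IM and 154 with the combination, which was below the background of 194, so its fold there is not known. ACAT2 was 259 with IM and 428 with the combination, DHCR7 649 and 1018, so the enzymes did not move one way. These comparisons share arrays with the IM comparisons, and they are values of 1 array a side.

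Other genes of lipid metabolism were counted from lists set beside the members. Measured genes include some that were never above background. Above it on any array were 10 of 10 genes of SREBP cleavage and degradation, 10 of 11 of the isoprenoid branch and 12 of 13 of sterol uptake. For sterol export and for other elongation genes it was 5 of 7 each. For acyl-CoA synthetases and citrate supply it was 6 of 11, for glycerolipid synthesis 13 of 15 and for fatty acid oxidation 16 of 18. In the fit of both lines 4.87% of all genes were called lower with IM and 2.75% higher, in K562 8.05% and 5.34%, and in KBM5 10.6% and 10.8%. Of 10 measured genes of SREBP cleavage and degradation, 0 were called in the fit of both lines or in KBM5 and 1 was lower in K562, and SEC24C differed by 0.33 ± 0.17 over both lines with no call. The isoprenoid branch, which leaves the pathway after FDPS, had 3 of 11 lower and 0 higher in the fit of both lines, and 3 lower and 1 higher in each line by itself. The 3 of the fit of both lines were PDSS1, for ubiquinone side chains (-1.73 ± 0.25, not exact because it was below background with IM in KBM5), ICMT, which methylates prenylated proteins (-1.33 ± 0.26), and NUS1, for dolichol (-0.88 ± 0.18). Of 13 genes of sterol uptake, transport and esterification, 2 were lower and 0 higher in the fit of both lines, 2 lower and 1 higher in K562, and 3 lower and 1 higher in KBM5. TMEM97, a sterol-regulated membrane protein (-2.60 ± 0.55), and SCARB1, a lipoprotein receptor (-1.61 ± 0.25), fell over both lines. TMEM97 fell by 1.25 in K562 and by 3.94 in KBM5, and the lines differed (-2.69 ± 0.33, limma adjusted p = 0.00094).

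Sterol export and liver X receptor genes were called in the other direction: of 7 measured, 1 was higher in the fit of both lines, 4 in K562 and 2 in KBM5, and 0 were lower in these 3 comparisons. ABCA7, a lipid exporter, rose by 2.86 ± 0.49 over both lines and APOE, a lipoprotein component, by 1.71 ± 0.25 in K562. Of 7 other elongation genes 1 was lower in the fit of both lines, 2 in K562 and 4 in KBM5, and 0 were higher. HACD2 was the one called over both lines (-1.34 ± 0.24), with values below background on some K562 arrays. Of 11 acyl-CoA synthetase and citrate supply genes 0 were called over both lines, with 2 lower in K562 and SLC25A1, the mitochondrial citrate carrier, lower in KBM5 (-1.37 ± 0.23). Glycerolipid synthesis had 0 of 15 lower and 1 higher in the fit of both lines, LPIN2 (0.96 ± 0.22, with 1 array below background), 4 lower and 0 higher in K562, and 2 lower and 3 higher in KBM5. Mitochondrial fatty acid oxidation had 0 of 18 lower and 1 higher in the fit of both lines, CPT2 (1.25 ± 0.20), 0 lower and 3 higher in K562, and 4 lower and 2 higher in KBM5.

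**Figure D4:**
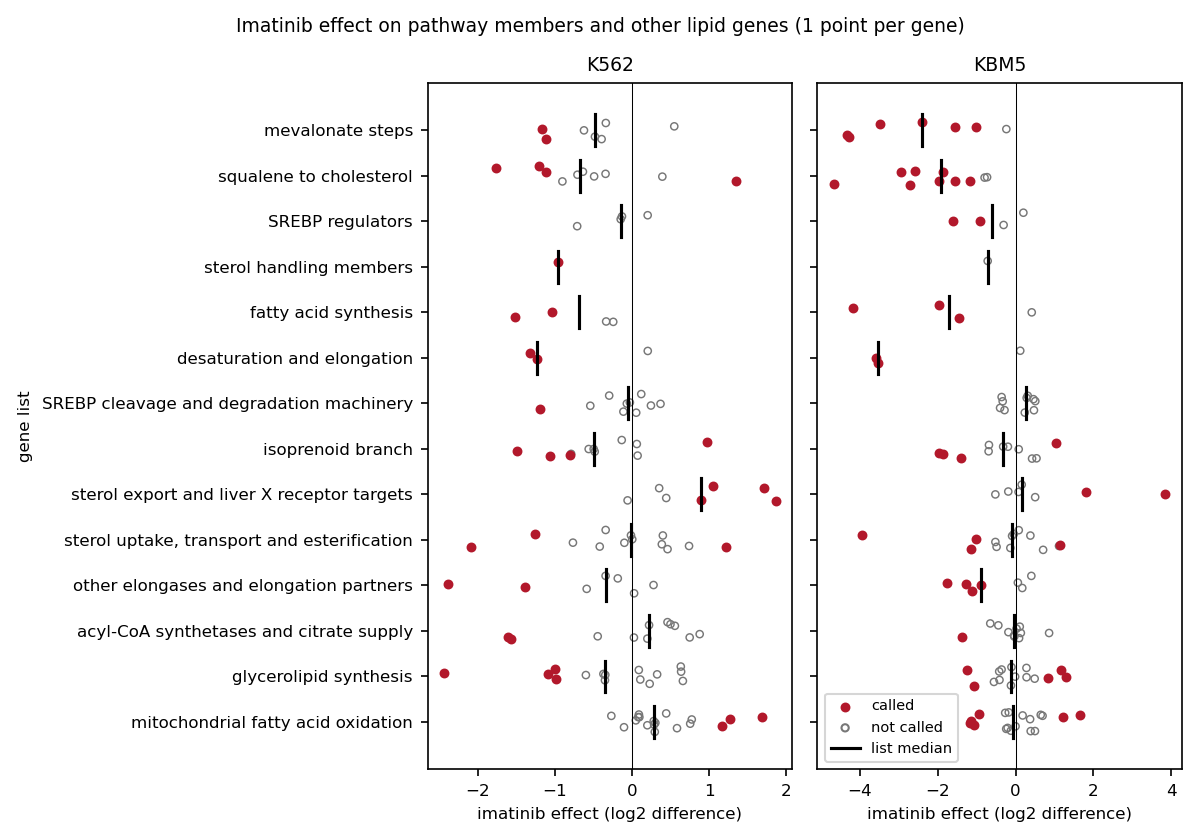
Log2 IM effect of every measured gene of the 6 member groups (top) and 8 other lipid gene lists (bottom), in K562 (left) and KBM5 (right), 1 point per gene; filled points passed an adjusted p under 0.05 and bars mark list medians. The member groups' medians lie under 0 in both panels, and further under it in KBM5 except for STARD4, the 1 measured sterol handling member, while medians of the other lists lie between -0.89 and 0.90; the x axes of the panels differ in range.

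The 12 calls in the fit of both lines rest on all arrays together: with any 1 array left out between 0 and 8 members were called, and 0 without K562 OR21 or without any 1 of the 4 KBM5 arrays. The count was 7 after quantile normalization, 7 on log2(value + 16) and 0 with the line left out of the model. The K562 calls went from 11 to 2 without any 1 of the K562 arrays, whereas in KBM5 19 to 21 were called whichever array was left out.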

How the data were processed

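Total RNA of 8 cultures was labelled with biotin for expression arrays, per the labels. The authors deposited 1 linear intensity per probe set and array (24351 probe sets); how they were summarized and normalized is not given in the sources used here. Gene names came from the supplied annotation (17709 probe sets with 1 symbol); for 20 genes with several the brightest was kept. Log2 intensities, not normalized further, were fitted with limma 3.58.1 in R 4.3.3 in 12 contrasts. A model of both lines (line plus treatment, 3 residual and 3.77 prior degrees of freedom) took the 2 lines as repeats. A model with baseline, OR21 and IM terms for each line (2 residual and 8.31 prior) used array pairs. All 8 arrays shared its estimate of the spread. P-values were adjusted by Benjamini-Hochberg over 17687 genes, and a gene was called under 0.05. Where 1 side was below background on all arrays, folds are bounds. The number of arrays limits the precision. Every member is named with its IM difference, fold or bound in each line, with array values for members called over both lines or for the difference between lines and for the regulators; other lists name up to 3 genes. Members and lists were chosen with earlier results of these data known. The fits were tested on simulated data. Alternatives were quantile normalization, brighter genes alone, an intensity trend with robust moderation, log2(value + 16), averaged probe sets, 1 array left out, no line term, and an OR21 by IM term.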

Additional observations from a re-analysis of the deposited data

Results flagged for a closer look

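The response to IM differed between the lines, by a test of the difference itself (KBM5 minus K562, log2, limma), for 14 members. Among the mevalonate steps the difference was -3.67 ± 0.46 for ACAT2, -3.22 ± 0.33 for HMGCS1, -2.10 ± 0.35 for MVD and -3.01 ± 0.44 for FDPS. From squalene to cholesterol it was -2.23 ± 0.36 for SQLE, -2.27 ± 0.38 for LSS, -1.75 ± 0.33 for CYP51A1, -2.09 ± 0.37 for TM7SF2, -2.22 ± 0.35 for MSMO1, -1.34 ± 0.34 for EBP and -2.91 ± 0.38 for DHCR7. In fatty acid synthesis and desaturation it was -2.65 ± 0.34 for FASN, -2.31 ± 0.33 for SCD and -2.25 ± 0.39 for FADS2. TM7SF2 was higher in both K562 pairs and lower in both KBM5 pairs. Leaving out either array of an IM pair gives the same result, so the 8 fits with 1 array left out come in equal pairs. With 1 array left out at a time, 9 of the 14 kept their call in all 8 fits; LSS, TM7SF2 and FADS2 kept it in 6, CYP51A1 in 4 and EBP in 2.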

How the results depend on the processing

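The labels give no shared replicate numbers, so none was used as a block. The line was a term of the fit of both lines, and the model with terms for each line used array pairs. For the IM effect in both lines, 12 members were called as reported, 7 after quantile normalization, 7 on log2(value + 16), 0 with the line left out of the model, and 0 to 8 with 1 array left out. For the level in KBM5 minus K562, 10 were called, 5 after quantile normalization and 5 to 10 with 1 array left out. For the IM effect in K562, 11 were called, 8 to 15 under the other settings and 2 to 12 with 1 array left out. For the IM effect in KBM5, 21 were called, 20 to 24 under the other settings and 19 to 21 with 1 array left out. For the difference between the lines, 14 were called, 14 to 18 under the other settings and 10 to 14 with 1 array left out. The OR21 effect in KBM5 gave 0, and 1 (HMGCS1) with an intensity trend and robust moderation. The other OR21 and combination contrasts gave 0 throughout. Quantile normalization moved the share of higher genes among all calls from 36.1% to 48.7% for IM in both lines and from 39.9% to 50.5% for IM in K562; it also turned the uncalled K562 differences of SREBF1 (0.092) and SCAP (0.11). No called member changed sign under any of these settings. With 1 array left out, uncalled differences changed sign over these ranges: in both lines MVD (-1.07 to 0.062), TM7SF2 (-0.14 to 0.76), SCAP (-0.15 to 0.22), ACSS2 (-0.20 to 0.38); in K562 LSS (-0.027 to 0.82), SREBF1 (-0.34 to 0.052), SREBF2 (-0.14 to 0.54), ACSS2 (-0.51 to 0.021), ELOVL6 (-0.023 to 0.43); in KBM5 SCAP (-0.17 to 0.57), ELOVL6 (-0.14 to 0.38); and for KBM5 minus K562 PMVK (-0.012 to 0.33), NSDHL (-0.16 to 0.029), SC5D (-0.38 to 0.20), SREBF1 (-0.45 to 0.12), SCAP (-0.040 to 0.70), ELOVL6 (-0.35 to 0.18). Leaving out an array of a line leaves each drug effect there with 1 array pair, which is assumed to vary like the pairs of the other line. Intensities near background limit PMVK, SC5D, FASN in KBM5 and ELOVL6 in KBM5. The causes of these shifts were not tested.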

Other observations

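Of 15 measured genes of glycerolipid synthesis, the IM effect was called lower in KBM5 than in K562 for 1 and higher for 3 (4.90% and 5.25% of all genes). Those described here were chosen after their values were seen, so no test of their difference between the lines is given. PCYT1A, which makes the activated choline of phosphatidylcholine, fell 2.00-fold in K562 and rose in KBM5 (1.17 ± 0.23). CHKA, the choline kinase before it, fell in K562 (-1.10 ± 0.24) and rose in KBM5 (0.83 ± 0.24). CHPT1, which makes phosphatidylcholine at the end of that route, differed by 0.66 ± 0.26 in K562 with no call and fell in KBM5 (-1.24 ± 0.26). Of 7 sterol export and liver X receptor genes, the IM effect was lower in KBM5 than in K562 for 1 and higher for 2.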
